A study of Bos taurus with 10 samples.

Results

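Protein phosphatases take phosphate groups off other proteins and so oppose the protein kinases. The genes described here are those whose symbol in the platform annotation starts with PPP1, PPP2, PPP3, PPP4, PPP5, PPP6 or PPM1 and whose probe set carries that symbol alone. They came to 54 of 9155 named genes, measured by 77 probe sets, and the brightest probe set stood for each gene. Of the 54 genes, 17 encode catalytic subunits and 37 encode regulatory subunits or proteins that bind a phosphatase. By family, 25 belong to protein phosphatase 1 (PP1), 11 to PP2A, 4 to calcineurin, 8 to PP4, PP5 and PP6, and 6 to the metal-dependent PPM1 phosphatases. Their levels were read in back muscle (longissimus dorsi) from 10 Hanwoo cattle, a Korean breed, on 10 Affymetrix GeneChip Bovine Genome Arrays. The label of animal 1 gives an age of about 2 years. The labels name no treatment, genotype or trait value, so the 10 animals form 1 group and no animals were set against others. The stated aim of the study was a correlation of expression with beef traits, whose values were not used here.

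As background, the catalytic subunits of PP1 and PP2A are few and act on many proteins, and a regulatory subunit decides where the enzyme sits and what it acts on. In skeletal muscle PP1 is carried to glycogen particles by targeting subunits, where it switches glycogen synthase on and glycogen phosphorylase off. Calcineurin is switched on by calcium and calmodulin and sends NFAT factors to the nucleus, a route known for its part in the slow fibre program. The PPM1 phosphatases work as single chains without such subunits.

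All levels below are on the log2(signal + 16) scale after quantile normalization, and each SD is over 10 animals. Probe sets differ in how brightly they bind, so a higher level of 1 gene than of another is not read as more transcript. Means were ordered to filter genes, to choose probe sets and named genes, and to compare SDs at like levels. Array medians of the deposited intensity were 111 to 134, and any 2 arrays correlated at 0.901 to 0.959. The 9 measured markers of skeletal muscle fibres had means from 15.22 (DES) to 15.90 (CKM). Animal 5 stood apart on an array quality measure. Poly(A) control transcripts are spiked in, and the gap between their 3′ and 5′ probe sets (3′ minus 5′, log2) came to 2.80 in animal 5, against 1.09 to 1.38 elsewhere. Animals 3 and 7 stood apart in a score of 5 tested genes of liver-made plasma proteins. Their scores, mean log2 deviations from the gene means, were 2.73 and 2.59, against -1.83 to 0.74 in the other 8. FGG, TF, HP and APOA1 were highest in these animals. ALB went the other way, at 10.75 and 10.73, with 11.81 in animal 1 as its highest value. In these bulk samples, fewer cells of a type and less RNA per cell cannot be told apart.

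A gene was tested where its mean exceeded 6.98, the median over the non-control probe sets, and 47 of the 54 phosphatase genes did. The other 7 were PPP1R13L, PPP1R14D, PPP1R32, PPP1R42, PPP2R2B, PPP2R5B and PPP4R4. PPP1R13L at 6.86 lay just outside and PPM1M at 7.13 just inside this limit.

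The catalytic subunits of PP1 all gave clear signals. PPP1CB, the beta isoform that also forms myosin phosphatase, stood at 14.02 ± 0.31 (SD, n = 10), with 13.65 as its lowest, 13.95 as its median and 14.81 as its highest value. PPP1CC, the gamma isoform, stood at 12.92 ± 0.35 and ran from 12.17 to 13.53. PPP1CA, the alpha isoform, stood at 10.70 ± 0.32 and ran from 10.08 to 11.07. Animal 5 held the highest value of PPP1CB and of PPP1CC and the lowest of PPP1CA. Without it the range of PPP1CB was 13.65 to 14.22.

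Among the regulators of PP1, PPP1R1A and PPP1R27 differed in spread. PPP1R1A, inhibitor 1, which blocks PP1 once protein kinase A has phosphorylated it, had 14.60 as its lowest, 14.97 as its median and 15.09 as its highest value. Its SD of 0.16 lay at the 3.35 percentile of the SDs of all 6271 tested genes. The SD was 0.39 with the deposited scaling and 0.31 with median centring, so it depended on the scaling. Its place among all genes under those scalings was not computed. PPP1R27, a small ankyrin repeat protein that binds dysferlin, ran from 13.31 to 14.79 around a median of 14.11, with an SD of 0.51. PPP1R27 was lowest in animal 5, next lowest in animal 6 and highest in animal 7.

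Of the glycogen-targeting subunits, 3 were measured. PPP1R3C, which brings PP1 to glycogen, ran from 10.86 to 12.67 with a median of 11.95 (SD 0.50), lowest in animal 10 and highest in animal 5. PPP1R3B, the form best known from liver, ran from 7.66 to 9.69 with a median of 8.78 (SD 0.54), lowest in animal 1 and again highest in animal 5. PPP1R3F stood at 8.88 ± 0.41. The other probe sets of PPP1R3C had r = 0.769 and 0.429 against the brightest one, and 0.915 and 0.750 without animal 5. In those probe sets animal 5 was not the highest. It stood at 10.89, within 9.82 to 11.63, and at 8.89, near the low end of 8.66 to 10.44.

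Inhibitor genes other than PPP1R1A varied more. PPP1R2, inhibitor 2, had 9.82 as its lowest, 11.21 as its median and 12.16 as its highest value (SD 0.64). PPP1R11, inhibitor 3, had 6.82, 8.70 and 9.20 as these values (SD 0.66). Animal 5 was lowest for both, and for PPP1R11 the other 9 animals lay between 8.48 and 9.20. PPP1R1B, which encodes DARPP-32, an inhibitor known from dopamine-responsive neurons, had 5.07, 7.42 and 8.52 (SD 0.90). Its low value was that of animal 10, and without this animal its SD was 0.50. The mean of PPP1R1B, 7.25, was close to the limit for testing.

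PPP1R15A, known as GADD34, takes PP1 to the translation factor eIF2 and is induced by cell stress. It ran from 8.44 to 10.15 with a median of 9.20 (SD 0.55), highest in animal 7 and next highest in animal 5 at 9.97. The PP1 partners known from the nucleus, PPP1R8 (10.19 ± 0.27), PPP1R7 (9.96 ± 0.22) and PPP1R10 (7.60 ± 0.58), differed in spread. PPP1R10 was lowest in animal 4 at 6.36 and highest in animal 10 at 8.35. The centriole gene PPP1R35 stood at 9.85 ± 0.28 and the endosomal gene PPP1R21 at 7.58 ± 0.58. Of the ankyrin repeat members, PPP1R16A stood at 8.67 ± 0.23, PPP1R16B at 7.72 ± 0.45 and PPP1R12C at 7.46 ± 0.46. PPP1R18, which binds actin, stood at 7.24 ± 0.49. PPP1R16B was lowest in animal 1 at 6.63, and so was PPP1R18 at 6.18.

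The PP2A family had the smallest median SD of the 5 families, 0.29 over 9 tested genes. Without animal 5 its median was 0.28. For calcineurin and for PP4, PP5 and PP6 the median was then 0.29, for PPM1 0.31 and for PP1 0.45. PPP2R2A, a B55 targeting subunit, ran from 11.43 to 11.74 with a median of 11.53. Its SD of 0.11 was the smallest of the 47 tested phosphatase genes and lay at the 0.622 percentile of all tested genes. The catalytic subunit genes, PPP2CA and PPP2CB, encode nearly identical proteins. PPP2CA ran from 11.25 to 12.12 with a median of 11.81 (SD 0.29). PPP2CB ran from 12.05 to 13.91 with a median of 12.62 (SD 0.51), and its highest value was that of animal 5, with 12.96 as the highest of the others. PPP2R1A, the scaffold that holds the catalytic and the targeting subunit together, ran from 9.32 in animal 5 to 10.88 in animal 1, with a median of 10.33 (SD 0.43). The B56 targeting subunits PPP2R5A, PPP2R5C, PPP2R5D and PPP2R5E had SDs from 0.21 to 0.30. PPP2R3C, a B subunit of another class, had an SD of 0.56 and ran from 7.80 to 9.27.

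Genes of calcineurin were measured for all 3 catalytic isoforms and for the calcium-binding B subunit. PPP3CA ran from 11.94 to 13.13 with a median of 12.16 (SD 0.40). PPP3CB ran from 12.08 to 13.06 with a median of 12.60 (SD 0.31). PPP3CC, the isoform best known from testis, ran from 8.98 to 10.85 with a median of 9.40 (SD 0.55). Animal 5 was highest for all 3, and for PPP3CC the other 9 animals reached at most 9.70. PPP3R1, the B subunit, ran from 6.63 in animal 4 to 8.19 in animal 6 (SD 0.38) and stood at 7.33 in animal 5. The mean of PPP3R1, 7.37, was close to the limit for testing, and its lowest value was below that limit.

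PP4, PP5 and PP6 are relatives of PP2A. PPP4C, the PP4 catalytic subunit, ran from 10.19 in animal 5 to 11.35 in animal 1, with a median of 10.82 (SD 0.44). PPP5C, a phosphatase that binds the chaperone HSP90, stood at 8.01 in animal 5, against 9.26 to 9.99 elsewhere (SD 0.58). Its SD was 0.25 without animal 5. PPP6C ran from 9.22 to 10.05 (SD 0.29) and its subunit PPP6R3 from 9.21 to 10.11 (SD 0.32), both lowest in animal 3 and highest in animal 8. Of the PP4 subunits, PPP4R3A had an SD of 0.59, PPP4R3B 0.22 and PPP4R2 0.21.

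The PPM1 genes ranged widely in spread. PPM1A and PPM1B, which act on stress kinases, stood at 13.22 ± 0.16 and 13.35 ± 0.35. PPM1D, a p53 target known as WIP1, stood at 9.82 in animal 5, against 8.73 to 8.98 in the remaining animals. PPM1G stood at 8.58 ± 0.35. PPM1K, the mitochondrial phosphatase that switches on branched-chain keto acid breakdown, had 6.28 as its lowest, 7.30 as its median and 8.54 as its highest value (SD 0.69). It was highest in animals 2 and 4 and lowest in animal 6. The other 3 PPM1K probe sets, all below the limit for testing, had r = 0.911, 0.735 and 0.730 with it over the 10 animals. PPM1M stood at 7.13 ± 0.55 and was also lowest in animal 6.

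**Figure D1:**
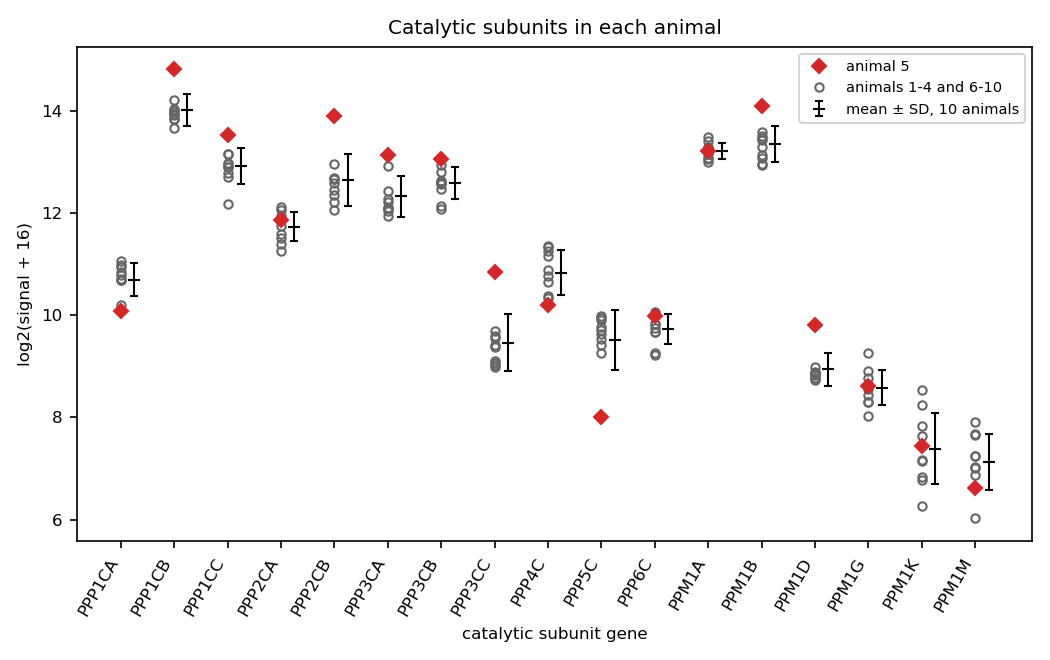
Level of the 17 catalytic subunit genes on the log2(signal + 16) scale (vertical axis) in animal 5 (red diamonds) and the other 9 animals (open circles), with the mean ± SD over 10 animals in black. Animal 5 lies above all others for 8 genes (PPP1CB, PPP1CC, PPP2CB, PPP3CA, PPP3CB, PPP3CC, PPM1B and PPM1D) and below all others for 3 (PPP1CA, PPP4C and PPP5C).

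Over the 47 tested phosphatase genes the median SD was 0.38, against 0.36 over all 6271 tested genes. An SD over 0.5 was found for 16 of the 47 (34%), while 22.1% of all tested genes had one. Without animal 5 these were 8 of 47 (17%) and 14.6%, and the median SDs were 0.30 and 0.31. Over all 10 animals the split by class was 5 of 17 catalytic and 11 of 30 regulatory genes, with 9 of the 18 tested PP1 regulators among the 11. Without animal 5 it was 2 of 17 and 6 of 30, with 4 of 18 PP1 regulators. The largest SDs were those of PPP1R1B, PPM1K, PPP1R11, PPP1R2, PPP4R3A, PPP1R21, PPP1R10 and PPP5C, from 0.58 to 0.90. For PPP1R11 and PPP5C this rested on animal 5, since without it both had an SD of 0.25, below the median of the 47 genes. The smallest were those of PPP2R2A, PPM1A, PPP1R1A and PPP2R5D, from 0.11 to 0.21. Of the phosphatase genes, 16 had a mean above 10.72, and their median SD was 0.33, against 0.32 for all 1568 tested genes above that level. For the 31 phosphatase genes below it the median SD was 0.43, against 0.37 for all 4703 tested genes there.

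**Figure D2:**
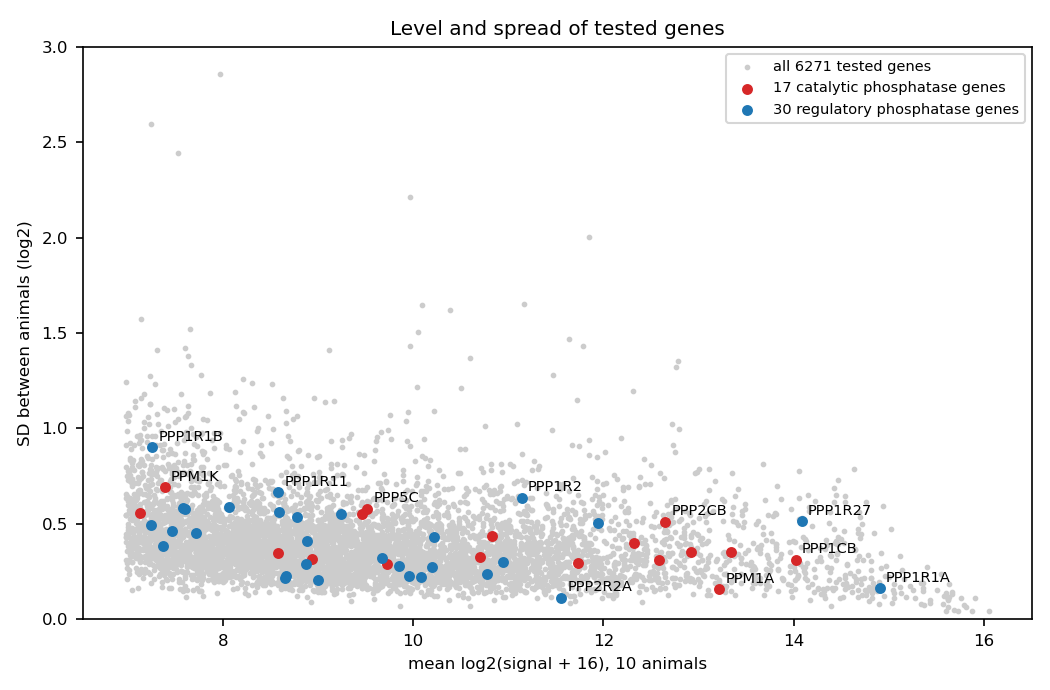
Mean log2(signal + 16) over 10 animals (horizontal axis) and SD between animals (vertical axis) of all 6271 tested genes in grey, with catalytic (red) and regulatory (blue) phosphatase genes on top. The phosphatase genes lie within the cloud of all genes, from PPP2R2A at an SD of 0.11 to PPP1R1B at 0.90.

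Other probe sets of the same gene offered another reading that the choice of members did not use. For 7 tested phosphatase genes another probe set was above the limit, and the median r over the 10 animals between the brightest and the next brightest was 0.235, against 0.343 over 1315 genes. These r are given as a description, and genes are not independent replicates. PPP1R2 had the closest readings, with r = 0.972 and SDs of 0.64 and 0.57. PPP1R7 had r = 0.582 and 0.168 without animal 5, and PPP2R5E had 0.235 and 0.478 without it. Of the other probe sets of PPP1CB, the brighter had r = 0.172 and the dimmer 0.909, and without animal 5 these were -0.460 and 0.759. For PPP3CB r was 0.138 (-0.178 without animal 5) and for PPP1CC -0.110 (-0.125 without it), so their probe sets did not vary together between animals. The 2 dim probe sets of PPP3CC had r = -0.316 and -0.008 with the brightest.

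**Figure D3:**
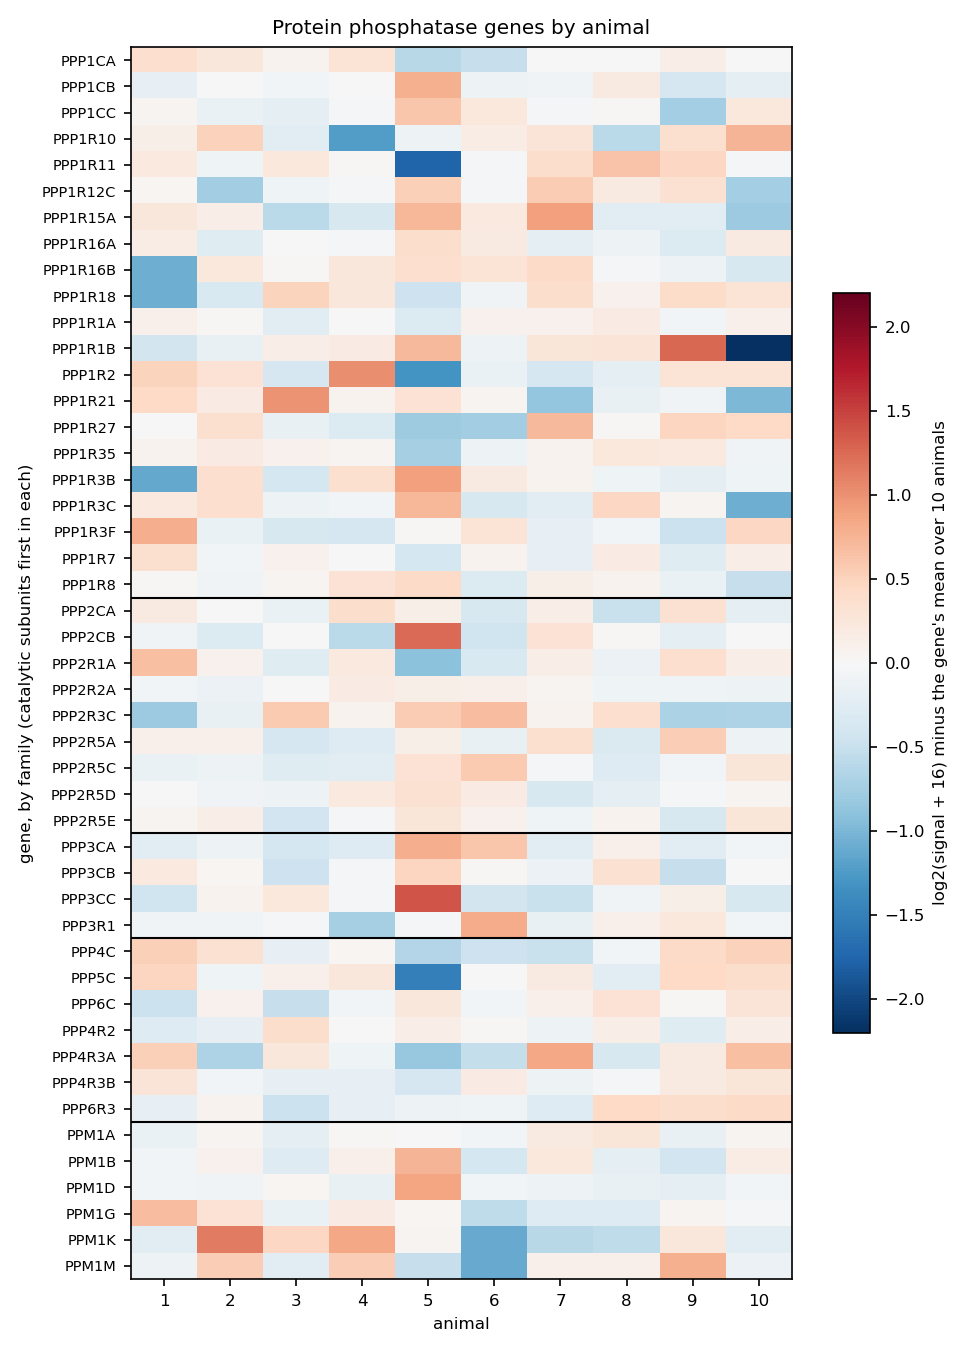
Deviation of each tested phosphatase gene (rows, by family) from its own mean over 10 animals, in each animal (columns), on the log2 scale from blue (low) to red (high). In the column of animal 5 the deepest colours are those of PPP1R11, PPP5C, PPP3CC, PPP1R2 and PPP2CB, and PPP1R1B stands out in animal 10.

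Of the 47 genes, 13 were highest in animal 5 and 12 were lowest there. For all tested genes, animal 5 lay above the other 9 animals in 21% and below them in 27.5%. In the calcineurin family 3 of 4 genes were above and 0 below, and among PP4, PP5 and PP6 genes 0 of 7 were above and 4 below. Among catalytic subunits 8 of 17 were above and 3 below, and among regulatory genes 5 of 30 were above and 9 below. Relative to the median of the other 9 animals, PPP1R11 was 3.96-fold lower, PPP5C 3.25-fold lower and PPP1R2 3.07-fold lower in animal 5. PPP3CC was 2.77-fold higher, PPP2CB 2.51-fold higher and PPP3CA 2.04-fold higher. These counts and folds are of the brightest probe set of each gene. In other probe sets above the limit, animal 5 was again highest for PPP3CB (9.70) and the dimmer PPP1CB set (11.15). It was again lowest for PPP1R2 (8.68) and PPP1R7 (8.72). It was not highest for PPP1CC (10.81), the brighter other PPP1CB set (11.35) or PPP1R3C. Nor was it highest in the dim sets of PPP3CC (6.22 in each) and PPP1R16A (5.56). The PPP3CC sets ran from 5.755 to 7.41 and from 4.43 to 6.64. For PPP1R16A animal 5 was next to lowest, in a range of 4.94 to 6.95.

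The genes were then set against the array quality measure on which animal 5 stood apart. In limma, with the 3′ minus 5′ difference of the poly(A) controls in SD units as covariate, 5 of 47 phosphatase genes rose and 4 fell at a Benjamini-Hochberg adjusted p below 0.05, while 15.5% of all 6271 genes passed, 4.35% rising and 11.1% falling. PPP1R11 fell by 0.60 per SD of the measure (SE 0.10, limma adjusted p = 0.00198), PPP5C by 0.51 (SE 0.10, adjusted p = 0.00446) and PPP1R2 by 0.48 (SE 0.13, adjusted p = 0.0336). PPP1R35 fell by 0.26 (SE 0.06, limma adjusted p = 0.0158). PPP2CB rose by 0.45 (SE 0.09, limma adjusted p = 0.00547), PPP3CC by 0.44 (SE 0.11, adjusted p = 0.0215) and PPM1D by 0.30 (SE 0.06, adjusted p = 0.00724). The PPP3CC call was lost with the mean of its probe sets (limma adjusted p = 0.254). PPP1CB rose by 0.27 (SE 0.07, limma adjusted p = 0.0284) and PPP3CA by 0.30 (SE 0.09, adjusted p = 0.0498). With the deposited scaling the calls of PPP1CB and PPP3CA were lost (limma adjusted p = 0.0666 and 0.0681), and with median centring those of PPP1CB, PPP1R2, PPP1R35 and PPP3CA were. All 9 calls rested on 1 array: without animal 5, 0 of 47 phosphatase genes and 0 of all genes passed in limma, with 4 of 47 and 325 of 6275 at an unadjusted p below 0.05. An exact Spearman test per gene over all 10 animals called 0 of 47 and 0 of all genes, with 3 of 47 and 7.02% of all genes at an unadjusted p below 0.05. Some markers of other states and cells were called with the same measure. Of 14 immediate early genes 4 rose (EGR1, FOS, JUN and NR4A2). In the smooth muscle list 2 of 8 genes fell (ACTA2 and TAGLN), and 1 of 11 connective tissue genes did (DCN). The median slopes of these lists were 0.31, -0.04 and -0.22. Other list genes had slopes of the opposite sign without passing, such as IER3 (-0.27), ZFP36 (-0.31), LMOD1 (0.20) and MYLK (0.08). The part of these markers in the phosphatase slopes was not tested.

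**Figure D4:**
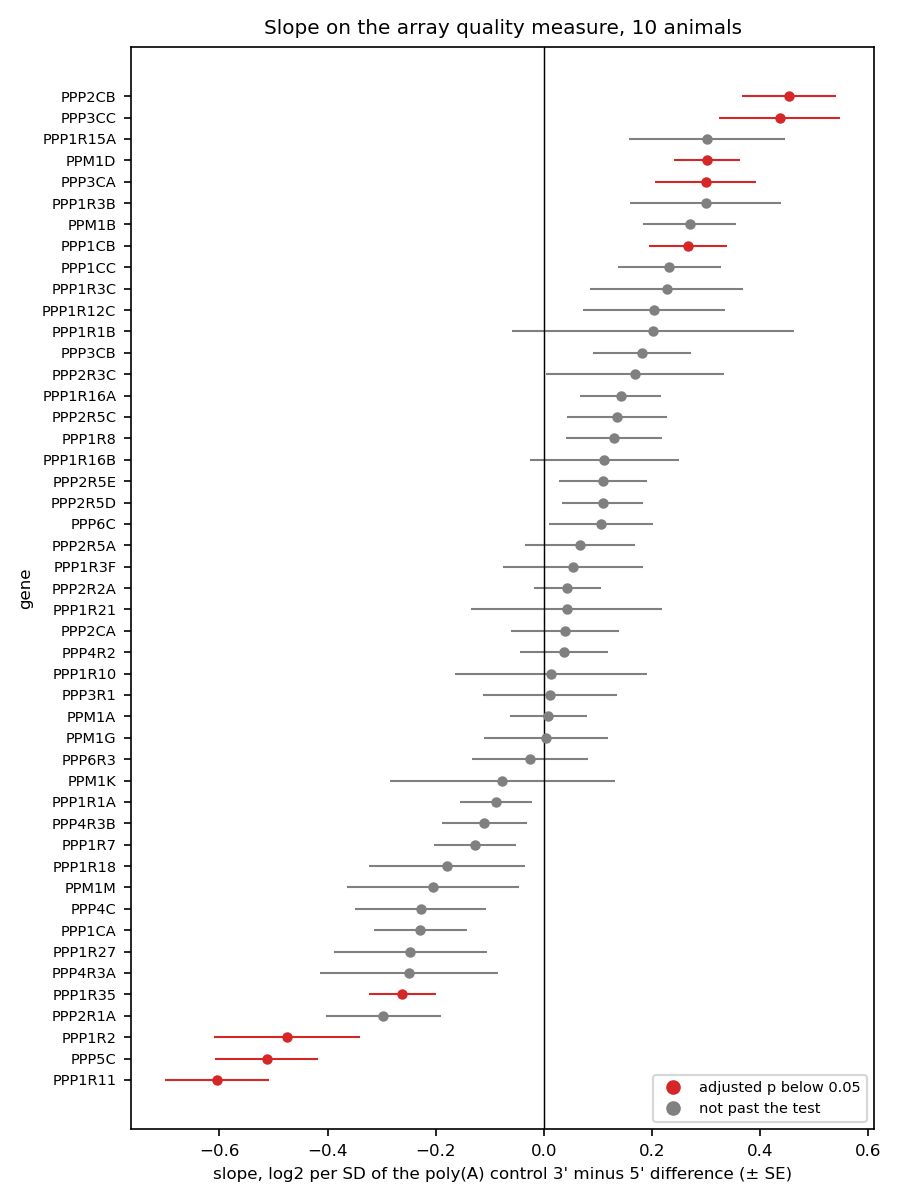
Slope (± SE) of each of the 47 tested phosphatase genes, in log2 per SD of the poly(A) control 3′ minus 5′ difference over 10 animals, ordered from the largest at the top. Red points are past the adjusted p of 0.05, and they run from PPP2CB at 0.45 to PPP1R11 at -0.60.

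Gene scores for fat cells, connective tissue, smooth muscle and the immediate early response were then used to ask which phosphatase genes varied with tissue makeup or with an early response. None of the 47 phosphatase genes passed in limma with any of the 4 scores. Few marker genes passed with their own score either. These were 2 of 8 adipocyte, 2 of 11 connective tissue, 1 of 14 immediate early and 0 of 8 smooth muscle genes. IER3 (-0.17, immediate early) and LMOD1 (-0.09, smooth muscle) had slopes below 0 on their own scores. For the adipocyte score, made of 8 tested genes, 0 of 47 passed and 0 had an unadjusted p below 0.05 in limma, with 0.0638% of all genes called and 7.21% unadjusted. An exact Spearman test called 0 of 47, with 2 unadjusted, against 7.86% of all genes. The smallest p belonged to PPP3CB (slope -0.19), PPP1CC (-0.21) and PPP1R11 (0.34), with limma adjusted p = 0.719, 0.719 and 0.724. For the connective tissue score, made of 11 genes, 0 of 47 passed and 3 were at an unadjusted p below 0.05 in limma, with 0.159% of all genes called and 8.45% unadjusted. The Spearman test called 0 of 47, with 1 unadjusted, against 7.78% of all genes. The 3 in limma were PPM1G with a slope of -0.26, PPM1B with -0.24 and PPP1R18 with 0.30, at limma adjusted p = 0.381, 0.492 and 0.531.

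For the immediate early score, made of 14 genes that include FOS, EGR1 and ATF3, 0 of 47 phosphatase genes passed in limma, with 5 at an unadjusted p below 0.05, while 0.0159% of all genes were called and 12.2% were unadjusted. The Spearman test called 0, with 3 unadjusted, against 5.8% of all genes. PPP1R18 had a slope of -0.36, PPP1R11 of -0.43 and PPP5C of -0.37, at limma adjusted p = 0.377, 0.377 and 0.379. Animal 5 had the highest score, 1.03, with -0.82 to 0.45 in the rest, and without it 2 of 47 phosphatase genes and 4.24% of all genes had an unadjusted p below 0.05 in limma. For the smooth muscle score, made of 8 genes, 0 of 47 passed in limma and 4 were at an unadjusted p below 0.05, with 0% of all genes called and 7.91% unadjusted. The Spearman test called 0 of 47, with 3 unadjusted, against 8.63% of all genes. PPP1R3C (slope -0.35), PPP3CB (-0.22) and PPP5C (0.35) had the smallest p, at limma adjusted p = 0.582, 0.594 and 0.596. Without animal 5, limma called 0 of 47 phosphatase genes with each score, with 2, 5, 2 and 1 at an unadjusted p below 0.05 for the adipocyte, connective tissue, immediate early and smooth muscle scores, against 6.5%, 12.1%, 4.24% and 4.41% of all genes. The shares of all genes called were then 0.0637%, 0.223%, 0% and 0%. With 10 arrays, a slope that misses the threshold does not show that a gene is independent of a score.

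Subunits of 1 enzyme, catalytic isoforms of 1 family, and phosphatases with genes of the pathway they act on were compared over 22 measured pairs of 31 chosen. In the other 9 pairs 1 gene was not measured under its symbol. No pair passed the adjustment over 22 pairs, for r or for rho, while 4 had an unadjusted permutation p below 0.05 for r. With the deposited scaling 3 pairs passed, and with the mean of probe sets 1 did. PPP1CA and its inhibitor gene PPP1R2 had r = 0.788 (two-sided permutation p = 0.00473, adjusted to 0.104, n = 10) and rho = 0.794 (permutation p = 0.00932, adjusted to 0.166). Pearson's r was 0.726 without the 2 animals farthest from the median of PPP1CA and 0.589 without animal 5. PPM1K and BCKDHB, a subunit of the branched-chain dehydrogenase that PPM1K acts on, had r = 0.729 (permutation p = 0.0182, adjusted p = 0.200) and rho = 0.758 (permutation p = 0.0151, adjusted to 0.166). Animals 2, 3 and 4 were high for both genes. This r was 0.692 without the 2 farthest animals and 0.844 without animal 5, while PPM1K and BCKDHA, the partner subunit of BCKDHB, had r = -0.433 (-0.432 without its 2 farthest animals, permutation p = 0.210, adjusted p = 0.330) and rho = -0.503 (permutation p = 0.145, adjusted to 0.344).

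PPP6C and its subunit gene PPP6R3 had r = 0.674 (permutation p = 0.0344, adjusted p = 0.252) and rho = 0.673 (permutation p = 0.0389, adjusted to 0.242), with 0.511 without the 2 farthest animals. PPP3CA and PPP3CB had r = 0.631 (permutation p = 0.0479, adjusted p = 0.263) and rho = 0.624 (permutation p = 0.0601, adjusted to 0.242), with 0.678 without the 2 farthest animals. Without animal 5 it was 0.423. PPP3CA and the B subunit gene PPP3R1 had r = 0.515 (permutation p = 0.166, adjusted p = 0.318) and rho = 0.467 (permutation p = 0.177, adjusted to 0.350), which was 0.334 without the 2 farthest animals and 0.767 without animal 5. PPP2CA and the scaffold gene PPP2R1A had r = 0.371 (permutation p = 0.296, adjusted p = 0.434) and rho = 0.636 (permutation p = 0.0554, adjusted to 0.242), which was 0.275 without the 2 farthest and 0.725 without animal 5. PPP2CB and PPP2R1A had r = -0.616 (permutation p = 0.0739, adjusted p = 0.264) and rho = -0.370 (permutation p = 0.294, adjusted to 0.436). This r was 0.162 without the 2 farthest animals and 0.039 without animal 5 alone, so the negative r rested on animal 5. The catalytic genes PPP2CA and PPP2CB had r = 0.020 (permutation p = 0.961, adjusted p = 0.988) and rho = -0.248 (permutation p = 0.493, adjusted to 0.637), and -0.179 without the 2 farthest.

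**Figure D5:**
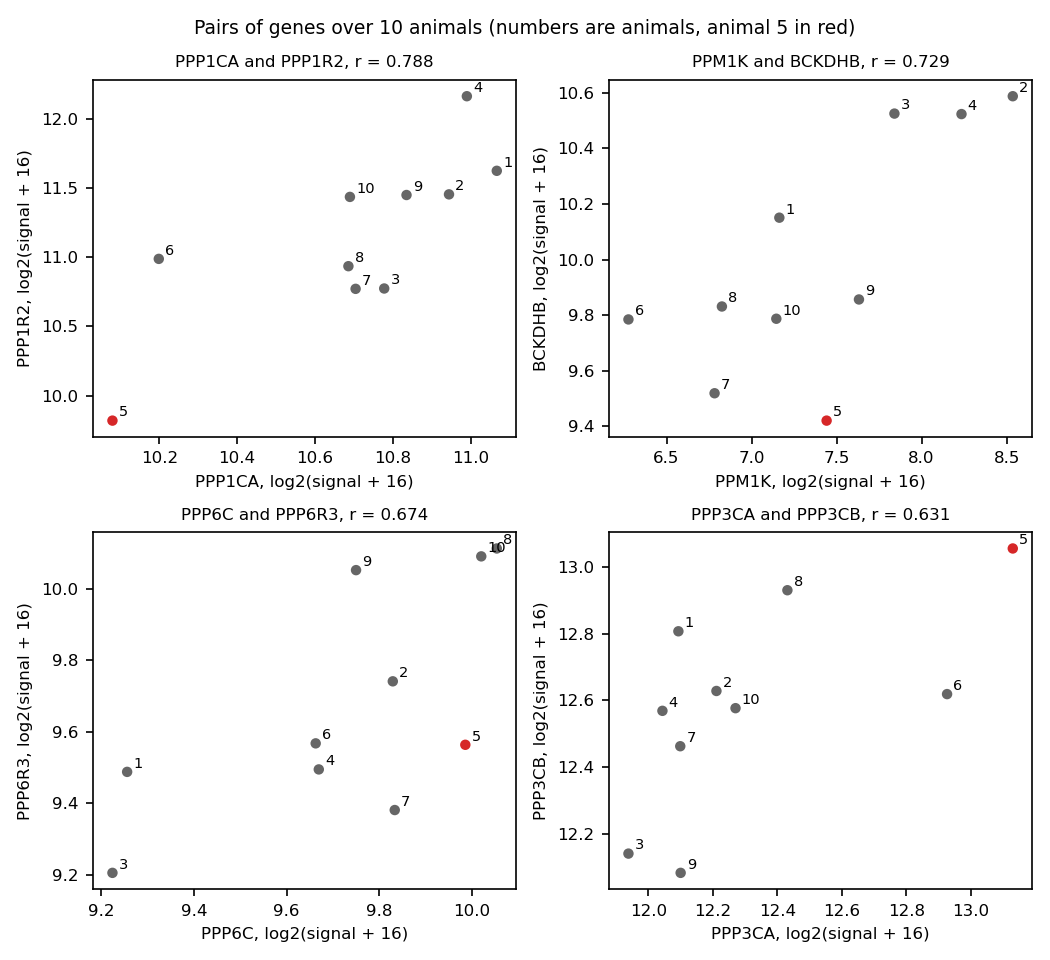
The 4 pairs with an unadjusted permutation p below 0.05, each gene on the log2(signal + 16) scale, 1 point per animal with its number and animal 5 in red. Animals 2, 3 and 4 lie top right for PPM1K and BCKDHB (r = 0.729), and animal 5 lies bottom left for PPP1CA and PPP1R2 (r = 0.788).

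With stress genes, PPP1R15A had r = 0.538 with ATF3 (permutation p = 0.107, adjusted p = 0.264) and rho = 0.564 (permutation p = 0.0951, adjusted to 0.266) and 0.518 without the 2 farthest animals. With ATF4 it had r = -0.485 (permutation p = 0.173, adjusted p = 0.318) and rho = -0.455 (permutation p = 0.191, adjusted to 0.350), which was -0.208 without the 2 farthest. With DDIT3 it had r = -0.006 (permutation p = 0.988, adjusted p = 0.988) and rho = -0.067 (permutation p = 0.865, adjusted to 1), and -0.071 without the 2 farthest. With glycogen phosphorylase, PPP1R3C and PYGM had r = 0.534 (permutation p = 0.108, adjusted p = 0.264) and rho = 0.561 (permutation p = 0.0965, adjusted to 0.266) and 0.659 without the 2 farthest. This r was -0.501 with the deposited scaling. RCAN1, a calcineurin inhibitor whose gene calcineurin induces, varied widely, from 10.58 to 14.05 (SD 1.19), but its r was 0.012 with PPP3CA (permutation p = 0.971, adjusted p = 0.988) and rho = 0.018 (permutation p = 0.973, adjusted to 1). It was 0.071 with PPP3CB (permutation p = 0.842, adjusted p = 0.988) and rho = 0.067 (permutation p = 0.865, adjusted to 1). Without the 2 farthest animals these were -0.291 and 0.061. The other 7 pairs had r from -0.476 (PPP1CC and PPP1R2) to 0.606 (PPP1CB and PPP1R3C), with permutation p between 0.0853 and 0.908.

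Other genes of these pathways were taken from 5 lists. In the calcineurin list 9 of 16 genes were tested, with a median SD of 0.46, from MYOZ1 at 0.12 to RCAN1 at 1.19. The glycogen list had 6 of 13 tested and a median SD of 0.27, from GYG1 (0.17) to GBE1 (0.43). The list of PP2A accessory proteins had 10 of 14 tested and a median SD of 0.32, from SET (0.14) to ENSA (0.67). The branched-chain list had 6 of 7 tested and a median SD of 0.43, from BCKDK (0.20) to BCAT2 (0.76). The eIF2 stress list had 4 of 11 tested and a median SD of 0.41, from EIF2AK1 (0.32) to ATF4 (0.73). In limma 0 genes of the 5 lists passed with the adipocyte, connective tissue, immediate early or smooth muscle score. With the poly(A) measure 1 of 9 calcineurin genes rose, MEF2A by 0.42 per SD (limma adjusted p = 0.00566). On that measure 1 of 4 eIF2 stress genes fell, ATF4 by 0.68 (limma adjusted p = 0.00113), and 2 of 10 PP2A accessory genes fell, IGBP1 by 0.31 and LCMT1 by 0.22 (limma adjusted p = 0.0231 and 0.0344). Of the glycogen and branched-chain genes, 0 of 6 each passed. Of all tested genes, 4.35% rose and 11.1% fell with this measure, and without animal 5 no gene passed in limma. ATF4 stood at 12.48 in animal 5, against 14.27 to 15.01 elsewhere.

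For the 3 phosphatase genes with the largest SD, the genes most like them were taken by Pearson r over the 10 animals, the highest over all tested genes and so given as a description. PPP1R1B was most like LOXL1 (r = 0.954), SEC22B (0.936) and SCMH1 (0.925), and without animal 10 these were 0.834, 0.848 and 0.785. PPM1K was most like VAMP7 (r = 0.885), FKBP4 (0.868) and CIRBP (0.866), and without animal 2 these were 0.884, 0.794 and 0.818. PPP1R11 was most like MRPL16 (r = 0.978), EXOSC3 (0.967) and CKS1B (0.965), and without animal 5 these were 0.815, 0.872 and 0.718.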

How the data were processed

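Poly(A) RNA was measured on 1-colour arrays, 1 per animal. The authors deposited 1 linear intensity per probe set and array; their software is not stated in any source used. Per the labels, total RNA was taken with Trizol and poly(A) RNA with oligo(dT) resin. Intensities were turned into log2(signal + 16) and quantile normalized over 24016 probe sets, leaving out 112 control probe sets. Array medians spanned 0.24 on this scale before that. Of these probe sets 13292 had 1 symbol, 86 several and 10638 none; 0 of those with several matched the rule. Symbols were checked against RefSeq names of ARS-UCD2.0, where 13263 matched and 0 changed. Only the sample numbers mark the samples as separate cattle, and p-values hold only if they are. Their number limits the precision.

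Fits used limma version 3.58.1 in R version 4.3.3 over 6271 genes. A score is the mean log2 deviation of its tested list genes from their means, and printed scores are on that log2 scale. For the fits a score was put in SD units, so slopes are log2 per SD. A list gene was fitted against the score without it. Pairs used two-sided permutation tests with 100000 resamples; with 9 or fewer animals all permutations were enumerated. The Spearman null was exact. Fits were tested on simulated data. Named genes are the catalytic, scaffold and calcineurin B subunits, members of fixed pairs, the 6 with the highest means, the 8 largest and 4 smallest SDs, genes past a fit and, where none passed, the 3 smallest p; other genes are named with their family. Members, lists and tests were chosen with earlier results of these data known. Alternatives were other scalings, pseudocounts, filters, averaged probe sets, animals left out, the poly(A) covariate and Spearman tests.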

Additional observations from a re-analysis of the deposited data

Results flagged for a closer look

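For 9 of 54 phosphatase genes (16.7%), against 14.6% of all 9155 named genes, 1 animal stood far from the rest, by the gap to its nearest neighbour as a share of the whole range (Dixon's ratio). Chance flags about 1 in 20 groups. In 7 of the 9 the animal was animal 5 (13% of the 54 genes, against 8.51% of all named genes). Among tested genes these shares were 14.9% of 47 and 11.9% of 6271. Animal 5 also stood apart in the poly(A) control measure. Animal 5 was highest for PPM1D (ratio 0.771), PPP3CC (0.616), PPP1CB (0.513) and PPP2CB (0.509). It was lowest for PPP1R11 (0.697), PPP1R35 (0.647) and PPP5C (0.632). PPP1R1B was lowest in animal 10 (0.518) and PPP1R16B in animal 1 (0.486). The part of array quality in these values was not tested.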

How the results depend on the processing

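With each alternative run, 0 phosphatase genes passed with the adipocyte, connective tissue, immediate early and smooth muscle scores. The 9 calls on the poly(A) measure were 5 when arrays were centred on their median, 5 with the mean of probe sets and 0 by Spearman test, and between 0 and 10 with 1 animal left out, 0 being without animal 5. The PPP3CA call (limma adjusted p = 0.0498) was lost in 15 of 18 alternatives. With 1 animal left out the slopes ran from -0.011 to 0.33 for PPM1D, -0.032 to 0.30 for PPP1CB, -0.65 to 0.029 for PPP1R11, -0.25 to 0.49 for PPP3CC and -0.55 to 0.048 for PPP5C, each turning sign without animal 5. The median SD of 0.38 stayed between 0.30 (without animal 5) and 0.40 with 1 animal left out and was 0.42 with no filter, where all 54 genes count. The median level of the 54 genes, 9.12, was 8.88 with the mean of probe sets.

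The count of 0 pairs was 3 with the deposited scaling, where PPP1CA and PPP1R2 (0.773), PPM1K and BCKDHB (0.796) and PPP1R1A and PYGM (0.820) each had an adjusted permutation p of 0.0484, and 1 with the mean of probe sets, PPP3CA and PPP3CB (0.863, adjusted permutation p = 0.016). PPP1R1A and PYGM had r = 0.051 with quantile normalization (permutation p = 0.878, adjusted p = 0.988). The cause was not tested. With 1 animal left out 0 pairs passed. Among pairs not past the test, the sign of r turned in 25 runs over 8 pairs. With the deposited scaling these were PPP1R3C and PYGM (-0.501), PPP3CA and RCAN1 (-0.089) and PPP3CB and RCAN1 (-0.025), and with median centring PPP1R3C and PYGM (-0.464). With a pseudocount of 64 it was PPP1R15A and DDIT3 (0.012), and with the mean of probe sets PPP3CB and PPP3R1 (0.220). Without animals 3 and 7 they were PPP2CA and PPP2CB (-0.015), PPP3CA and RCAN1 (-0.174), PPP3CB and RCAN1 (-0.152) and PPP1R1A and PYGM (-0.131). With 1 animal left out, PPP2CB and PPP2R1A ran from -0.757 to 0.038, PPP2CA and PPP2CB from -0.238 to 0.264, PPP1R15A and DDIT3 from -0.506 to 0.441, PPP3CA and RCAN1 from -0.585 to 0.387, PPP3CB and RCAN1 from -0.277 to 0.390, PPP1R1A and PYGM from -0.226 to 0.155 and PPP3CB and PPP3R1 from -0.106 to 0.098. No paired analysis was possible because the animals form 1 group. With 10 arrays and no depth, precision is limited by the number of arrays and, near the filter, by signal over background.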
